A study of Mus musculus with 6 samples.

Results

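A set of 10 genes widely used as markers of astrocytes, the glial cells that support neurons and synapses, was followed through the conversion of mouse epiblast stem cells (EpiSCs) into oligodendrocytes. They are Gfap, Aqp4, S100b, Slc4a4, Mlc1, Hepacam, Acsbg1, Aldh1l1, Nfia and Nfib, chosen by name. All 10 were measured, among 19938 genes on the array. Each cell type was grown from strain 129 cells, and each sample was 1 culture on 1 Affymetrix whole-transcript array. EpiSCs (1 array) were kept in knockout serum replacement with FGF2, and neural rosettes (1 array) were taken after 5 days in SB431542, Dorsomorphin, Noggin, retinoic acid and sonic hedgehog (SHH). Oligodendrocyte progenitor cells (OPCs, 2 arrays) were raised from dissociated rosettes in N2B27 with FGF2, PDGF-AA and SHH, at passage 3 and at passage 11. Oligodendrocytes (2 arrays) came from OPCs of the same passages after thyroid hormone was added and FGF2 and PDGF-AA were withdrawn. The labels do not say whether the passages came from separate derivations, so the tests below weigh differences against the spread between passages alone, which may be technical in part.

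Astrocytes and oligodendrocytes arise from related neural progenitors, and several genes called astrocyte markers are also used by cells of the oligodendrocyte lineage. Nuclear factor I proteins such as NFIA and NFIB act early, at the onset of glial development. GFAP, the intermediate filament protein of astrocytes, and AQP4, their water channel, appear later and rise further when astrocytes become reactive. In astrocytes MLC1 and its partner HEPACAM (GlialCAM) form a membrane complex at cell contacts, and SLC4A4 carries sodium and bicarbonate. ACSBG1 activates long-chain fatty acids, ALDH1L1 is a folate enzyme used as a general astrocyte marker, and S100B is a calcium-binding protein found in astrocytes and in maturing oligodendrocytes.

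Values below are log2 expression, and differences are log2 differences, so that a difference of 1 is 2-fold. The labelled identities were checked against marker lists. All 10 of 10 OPC markers rose from rosette to OPCs, where 1.26% of all genes rose (limma, Benjamini-Hochberg adjusted p under 0.05 over all genes). Of 11 measured myelin genes 8 rose from OPCs to oligodendrocytes, where 0.396% of all genes rose. Of the 10 OPC markers 1 rose and 0 fell in that comparison, with a median difference of -0.24 and 4 positive. Their list means were 11.80 and 11.89 in OPCs and 11.86 and 11.965 in oligodendrocytes. These means cover changes in both directions, with Cspg4 at -0.80 and Pdgfra at -0.61, and Sox10 at 0.66 and Gpr17 at 1.97. In limma 7 of the 10 had an unadjusted p under 0.05, against 12.3% of all genes. The oligodendrocyte cultures thus gained myelin genes without a called loss of OPC markers, and its part in the results below was not tested. The mean log2 level of 7 pluripotency genes was 12.30 in EpiSCs and 8.03 to 8.23 on the other arrays. Lists of microglial (8 genes), endothelial (6) and ependymal (6) markers had means between 7.81 and 8.61 on every array. No detection call was used, so a value near these levels can be background, and a fold change from it can be compressed. The array medians over genes lay between 8.98 and 9.04. In cultures measured in bulk, more cells of a type and more RNA per cell cannot be told apart.

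**Figure D1:**
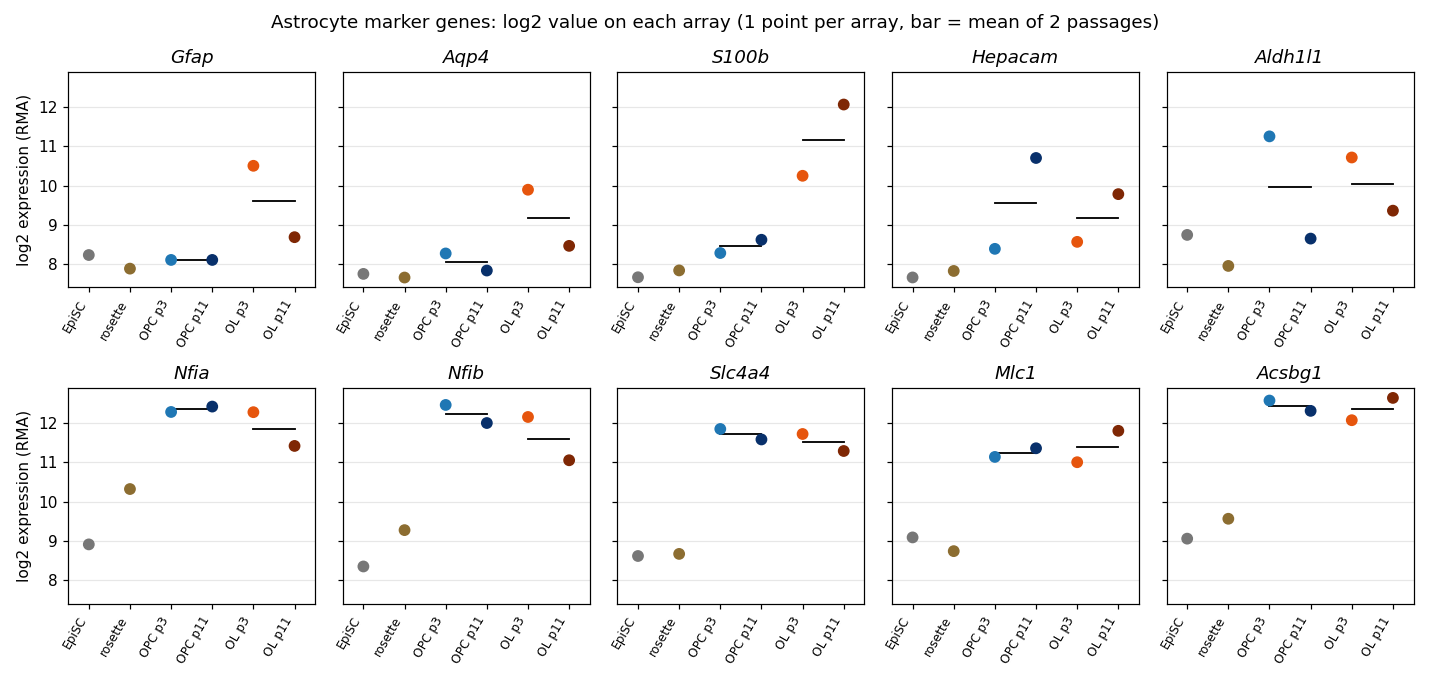
The log2 value of each of the 10 astrocyte marker genes (vertical axis, RMA log2 units) on each of the 6 arrays (horizontal axis, p3 and p11 for passage 3 and passage 11, OL for oligodendrocytes), with a bar at the mean of each pair of passages. Slc4a4, Mlc1 and Acsbg1 lie above 11.0 on all 4 OPC and oligodendrocyte arrays, whereas Gfap and Aqp4 exceed 9.0 only in passage 3 oligodendrocytes.

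The members fell into groups with unlike profiles, described here by what the proteins do. The transcription factor genes Nfia and Nfib were already higher in the rosette than in EpiSCs and higher still in OPCs. Passage 3 oligodendrocytes read near the OPC levels, and passage 11 oligodendrocytes lower. The membrane and lipid genes Slc4a4, Mlc1 and Acsbg1 stepped up between rosette and OPCs and stayed there. Gfap, Aqp4 and S100b had low values in both OPC cultures and higher ones in oligodendrocytes, by amounts that differed between passages and did not pass the test for any of them. Hepacam and Aldh1l1 were the members farthest apart between the OPC passages, in opposite directions.

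Promoters were taken from RefSeq (build GRCm38.p6, 250 bases before to 50 after the annotated start). The table used held 9 promoters of 8 members, all but Aqp4 and Nfib, with 2 for Slc4a4. Printed here, 5′ to 3′ on the gene's strand from 250 bases before to 10 after the start, are those of 6 members that represent the profiles above: a pair with its highest values in oligodendrocytes (Gfap, S100b), a pair that rose in OPCs (Acsbg1, Mlc1) and the pair that diverged with passage (Hepacam, Aldh1l1). Capitals mark TTGGC (or GCCAA on the other strand), a single arm of the nuclear factor I palindrome, and TTCNNNGAA, the site of STAT factors.
Gfap (chr11:102897191-102897450, minus strand): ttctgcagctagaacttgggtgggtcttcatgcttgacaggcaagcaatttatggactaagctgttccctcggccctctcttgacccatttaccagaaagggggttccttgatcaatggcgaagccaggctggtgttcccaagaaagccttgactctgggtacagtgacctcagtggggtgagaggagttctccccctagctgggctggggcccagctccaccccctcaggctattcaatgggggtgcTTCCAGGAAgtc
S100b (chr10:76253586-76253845, plus strand): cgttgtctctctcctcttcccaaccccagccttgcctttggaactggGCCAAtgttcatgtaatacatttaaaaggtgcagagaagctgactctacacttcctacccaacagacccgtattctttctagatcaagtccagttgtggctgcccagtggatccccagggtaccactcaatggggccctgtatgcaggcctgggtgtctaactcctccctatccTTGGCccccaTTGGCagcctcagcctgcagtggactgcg
Acsbg1 (chr9:54661876-54662135, minus strand): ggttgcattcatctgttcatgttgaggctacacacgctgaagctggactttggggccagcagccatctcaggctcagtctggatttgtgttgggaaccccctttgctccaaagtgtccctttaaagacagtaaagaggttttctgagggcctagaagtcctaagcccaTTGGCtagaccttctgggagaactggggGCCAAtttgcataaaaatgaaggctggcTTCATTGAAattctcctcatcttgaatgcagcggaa
Mlc1 (chr15:88978544-88978803, minus strand): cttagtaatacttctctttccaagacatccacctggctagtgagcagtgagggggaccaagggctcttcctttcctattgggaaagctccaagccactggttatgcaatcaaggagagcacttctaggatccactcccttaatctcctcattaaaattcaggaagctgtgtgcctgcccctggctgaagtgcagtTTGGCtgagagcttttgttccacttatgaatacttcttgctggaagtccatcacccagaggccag
Hepacam (chr9:37367356-37367615, plus strand): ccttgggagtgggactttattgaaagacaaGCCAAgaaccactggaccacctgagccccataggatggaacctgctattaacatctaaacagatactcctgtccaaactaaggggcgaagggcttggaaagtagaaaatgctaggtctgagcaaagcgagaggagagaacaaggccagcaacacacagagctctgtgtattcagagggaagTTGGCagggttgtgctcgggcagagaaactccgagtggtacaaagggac
Aldh1l1 (chr6:90550543-90550802, plus strand): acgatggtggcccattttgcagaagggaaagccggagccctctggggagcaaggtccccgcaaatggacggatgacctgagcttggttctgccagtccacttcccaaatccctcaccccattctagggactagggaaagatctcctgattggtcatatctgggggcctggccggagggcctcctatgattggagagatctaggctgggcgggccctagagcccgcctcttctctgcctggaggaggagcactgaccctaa

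Over the full 300 bases, 6 of the 9 promoters, from 5 of the 8 members, held TTGGC on either strand, against 46.7% of the 32851 promoters in the table. S100b held 4 copies, and Gfap, Aldh1l1 and Nfia held none. The full nuclear factor I palindrome, which contains TTGGC on both strands, was in 0 of the 9 and in 0.0365% of all promoters. TTCNNNGAA, itself a palindrome, was found at the start of Gfap (bases -2 to 7) and 26 to 18 bases before the start of Acsbg1, against 8.3% of all promoters. ACAAAG, a SOX site, was in the Hepacam promoter and in 18.7% of all. The E-box CANNTG was in 7 of the 9 and in 72.3% of all. TATAAA, the TATA box, was in none of the 9 and in 13.6% of all promoters. These motifs were searched on both strands. A match describes the letters only. The ratio of observed to expected CpG was below the median of all promoters (0.384) in 8 of the 9, from 0.122 in Acsbg1 to 0.333 in Aldh1l1. The exception was the upstream Slc4a4 promoter, at 1.06 with 50 CpG in 300 bases, while the other Slc4a4 promoter had a ratio of 0.181.

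Nfia and Nfib encode DNA-binding factors of the nuclear factor I family. Nfia measured 8.92 in EpiSCs, 10.32 in the rosette, 12.28 and 12.42 in OPCs at passages 3 and 11, and 12.28 and 11.42 in oligodendrocytes at the same passages. Nfib measured 8.35, 9.28, 12.46, 12.004, 12.16 and 11.06 on the same arrays in that order. For both genes the EpiSC array was lowest, the rosette next, and all 4 later arrays lay above both. The rosette exceeded EpiSCs by 1.41 for Nfia (2.65-fold) and by 0.92 for Nfib, without replicates. Nfia was the only member at least 2-fold apart in that comparison, where 10.6% of all genes were.

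Between the rosette and OPCs Nfib rose by 2.95 ± 0.48 (SE, 7.75-fold, limma adjusted p = 0.0452), from 2 OPC arrays against 1 rosette array whose spread was assumed to equal that of the OPC and oligodendrocyte pairs. Nfia differed by 2.03 ± 0.36 and narrowly missed the threshold (limma adjusted p = 0.0585, and 0.0490 with passage as a replicate block). It passed also with the mean of its transcripts (0.0241), with centred arrays (0.0235) and without either oligodendrocyte array (5.43e-06). It missed the threshold with an intensity trend (0.0538), among genes above the median (0.0651) and without the passage 3 (0.133) or passage 11 (0.182) OPC array. Against EpiSCs both rose in OPCs, Nfia by 3.44 ± 0.36 (10.8-fold, limma adjusted p = 0.0090) and Nfib by 3.88 ± 0.48 (14.7-fold, limma adjusted p = 0.0133). The OPC comparisons share the OPC arrays, so these values are not separate evidence. Each gene had a second measured transcript at a lower level. Between the oligodendrocyte passages that of Nfib followed the first, from 10.09 at passage 3 to 9.001 at passage 11. It read 6.87 in EpiSCs and 7.14 in the rosette, a smaller step than that of the first. The second Nfia transcript read 10.60 and 10.61 in oligodendrocytes at passages 3 and 11, unlike the first, which was 0.86 lower at passage 11.

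A list of genes of gliogenic signalling placed these factors among others. Of its 29 measured genes 4 rose and 1 fell from rosette to OPCs (median 0.30, against 0.02 over all genes tested). Beside Nfib they were the family member Nfix at 2.55 ± 0.18, the ETS factor gene Etv5 at 3.97 ± 0.17 and Id3, which encodes an inhibitor of bHLH factors, at 1.46 ± 0.18. Etv5 was lowest in the rosette, at 8.18 against 11.70 in EpiSCs, and OPCs differed from EpiSCs by 0.44 (limma adjusted p = 0.237). Nfix and Id3 exceeded EpiSCs in OPCs by 2.83 and 1.40. Cntfr, the receptor gene for ciliary neurotrophic factor, fell by 1.65 (SE 0.16). The calls of Id3 and Cntfr were lost without either OPC array (limma adjusted p between 0.0763 and 0.122). Of all genes, 1.26% rose and 1.87% fell in that comparison. From OPCs to oligodendrocytes 0 of the 29 were called by limma, where 0.446% of all genes were, and 4 had an unadjusted p under 0.05, against 12.3% of all genes. Sox9, a glial factor gene, was the lowest of them at -1.01 (limma adjusted p = 0.128), with 12.24 and 12.22 in OPCs and 11.41 and 11.02 in oligodendrocytes.

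Slc4a4 is the sodium bicarbonate cotransporter gene. Its log2 values were 8.62 in EpiSCs and 8.67 in the rosette, 11.85 and 11.59 in OPCs at passages 3 and 11, and 11.72 and 11.29 in oligodendrocytes. The EpiSC and rosette arrays differed by 0.05, and none of the 4 later arrays came near them. OPCs exceeded the rosette by 3.04 ± 0.25 (8.25-fold, limma adjusted p = 0.0085) and EpiSCs by 3.10 ± 0.25 (limma adjusted p = 0.0045). The difference between oligodendrocytes and OPCs, -0.21 ± 0.20, did not pass (limma adjusted p = 0.841), and the arrays of both types overlapped.

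Acsbg1, the fatty acid activating enzyme gene, followed the same course. It read 9.06 in EpiSCs, 9.57 in the rosette, 12.58 and 12.31 in OPCs, and 12.08 and 12.64 in oligodendrocytes. Its rise from rosette to OPCs was 2.88 ± 0.29 (7.34-fold, limma adjusted p = 0.0130), and oligodendrocytes stood at -0.09 ± 0.23 from OPCs (limma adjusted p = 0.985). Mlc1 read 9.09 in EpiSCs, 8.74 in the rosette, 11.14 and 11.36 in OPCs, and 11.01 and 11.81 in oligodendrocytes. It rose by 2.51 ± 0.35 from rosette to OPCs (5.68-fold, limma adjusted p = 0.0308). From OPCs to oligodendrocytes Mlc1 differed by 0.15 ± 0.29 (limma adjusted p = 0.959). For each of these genes the levels in OPCs and oligodendrocytes did not differ beyond the spread between passages.

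In all, 4 of the 10 members rose and 0 fell between rosette and OPCs, against 3.13% of all genes called in either direction. The rosette also held neuronal markers: their mean log2 level over 10 genes was 12.36 there, against 9.06 in EpiSCs and 10.16 and 9.80 in OPCs. Of these 10 neuronal genes 5 fell and 0 rose from rosette to OPCs (median -2.03), and their part in the members' differences was not tested. For the astrocyte marker genes all 10 differences were positive, with a median of 2.01, and 7 were at least 2-fold higher, against 2.93% of all genes. With 1 OPC array left out, 2 members stayed called in each case, Slc4a4 and Acsbg1. Without the passage 3 OPC array the limma adjusted p was 0.0675 for Mlc1 and 0.101 for Nfib, and without the passage 11 array it was 0.101 and 0.0801. With either oligodendrocyte array left out, 5 members passed. Against EpiSCs 5 of 10 rose in OPCs, the same 4 and Nfia, where 7.01% of all genes were called and 4.07% rose, and 4 rose without either OPC array, when Mlc1 missed the threshold. Between rosette and OPCs 624 genes were called in all, 1206 with passage as a replicate block, 208 and 156 without the passage 3 and passage 11 OPC array, and 2897 without either oligodendrocyte array.

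**Figure D2:**
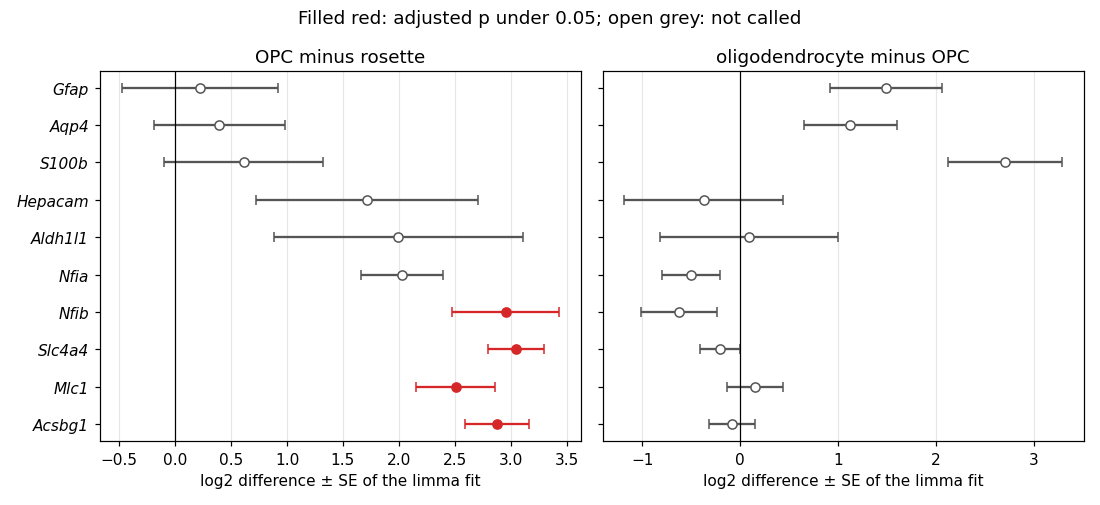
Log2 differences of the 10 genes with the standard error of the limma fit (horizontal axis), for OPCs minus rosette (2 arrays against 1) and oligodendrocytes minus OPCs (2 against 2). Nfib, Slc4a4, Mlc1 and Acsbg1 pass in the first panel, and no gene passes in the second, where S100b lies farthest to the right at 2.70.

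Hepacam encodes the adhesion protein that binds MLC1. It measured 7.66 in EpiSCs, 7.83 in the rosette, 8.39 in passage 3 OPCs and 10.70 in passage 11 OPCs. Oligodendrocytes read 8.57 at passage 3 and 9.78 at passage 11. Both passage 11 arrays were above both passage 3 arrays, which lay within 1 log2 unit of the rosette. OPCs at passage 11 exceeded those at passage 3 by 2.31 (4.96-fold), and only 8 genes of 19938, Hepacam included, were as far apart between the OPC arrays. In oligodendrocytes the passage difference was 1.21 (2.32-fold).

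Aldh1l1, the folate enzyme gene, ran the other way. Its values were 8.74 in EpiSCs, 7.95 in the rosette, 11.25 in passage 3 OPCs and 8.65 in passage 11 OPCs. Oligodendrocytes read 10.71 at passage 3 and 9.36 at passage 11. Passage 11 OPCs were thus at the level of EpiSCs, 2.60 below passage 3 OPCs (6.07-fold), and 6 genes of all, Aldh1l1 included, were as far apart. In oligodendrocytes passage 11 was 1.35 lower than passage 3 (2.55-fold). The mean OPC level of either gene therefore describes neither culture, and the difference from the rosette did not pass for Hepacam (1.72 ± 0.99, limma adjusted p = 0.543) or Aldh1l1 (2.0 ± 1.11, limma adjusted p = 0.525). Against EpiSCs Hepacam in OPCs was not called (1.88 ± 0.99, limma adjusted p = 0.397, and 0.0475 with passage as a replicate block).

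Between the OPC arrays 2 of 10 members, Hepacam and Aldh1l1, were at least 2-fold apart, where 0.627% of all genes were. Between the oligodendrocyte arrays 6 of 10 were, where 3.94% of all genes were: S100b and Hepacam higher at passage 11, and Gfap, Aqp4, Nfib and Aldh1l1 lower. Hepacam and Aldh1l1 were the 2 members at least 2-fold apart between passages in the same direction in both cell types, where 79 genes (0.396% of all) were. Fitted over both cell types, passage 11 minus passage 3 was 1.76 ± 0.29 for Hepacam and -1.98 ± 0.32 for Aldh1l1, with a limma adjusted p of 0.357 for each. The SE of that fit rests on 1 residual degree of freedom, from how far the passage difference varied between OPCs and oligodendrocytes, and on 3.19 prior degrees of freedom borrowed from all genes. No member and no gene of all passed in limma (0% called). At an unadjusted p under 0.05 there were 7 of the 10 members, against 13.9% of all genes. Over genes, the passage differences of OPCs and oligodendrocytes correlated at 0.503, as a description of 4 arrays.

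S100b encodes a calcium-binding protein. It measured 7.67 in EpiSCs, 7.84 in the rosette, 8.28 and 8.62 in OPCs at passages 3 and 11, and 10.25 and 12.06 in oligodendrocytes. Both oligodendrocyte arrays were above all others, and the first 4 arrays spanned less than 1 log2 unit. It was higher in oligodendrocytes by 1.96 at passage 3 (3.90-fold) and by 3.44 at passage 11 (10.9-fold), where 17 genes of all were as far apart. The mean difference of 2.70 ± 0.58 (6.51-fold, limma unadjusted p = 0.0047) did not pass over all genes (adjusted p = 0.174), and the oligodendrocyte arrays lay 1.81 apart.

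Gfap, the astrocyte filament gene, read 8.23 in EpiSCs, 7.89 in the rosette, 8.11 in OPCs at both passages, 10.50 in passage 3 oligodendrocytes and 8.69 in passage 11 oligodendrocytes. The first 4 arrays lay within 0.35 of each other, and passage 3 oligodendrocytes stood alone. They exceeded the OPCs of their passage by 2.39 (5.26-fold), against 0.58 (1.49-fold) at passage 11. Aqp4, the water channel gene, read 7.75, 7.66, 8.27, 7.84, 9.89 and 8.47 in the same order of arrays. Its difference between oligodendrocytes and OPCs was 1.62 at passage 3 (3.08-fold) and 0.63 at passage 11 (1.54-fold). Averaged over passages, Gfap differed by 1.49 ± 0.57 (limma adjusted p = 0.387) and Aqp4 by 1.12 ± 0.48 (limma adjusted p = 0.440).

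Over the 10 members, 0 were called between OPCs and oligodendrocytes by limma and 2, S100b and Gfap, had an unadjusted p under 0.05. Of all genes 0.446% were called, and 12.3% had an unadjusted p under 0.05. The members' median difference was 0.00, as it was over all genes, and 5 of 10 were positive. Nfia stood at -0.50 ± 0.30 and Nfib at -0.63 ± 0.39. At passage 11 alone Nfia was lower in oligodendrocytes (difference -1.0) and so was Nfib (-0.95), against -0.01 and -0.31 at passage 3. By single arrays, 3 of 10 members (S100b, Gfap and Aqp4) were at least 2-fold higher at passage 3, where 2.65% of all genes were. At passage 11 S100b was at least 2-fold higher and Nfia at least 2-fold lower, as were 2.55% and 2.48% of all genes. Nfia only just reached that size, at 2.002-fold. Its second transcript, at 11.11 in OPCs and 10.61 in oligodendrocytes of passage 11, did not reach it.

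The differences of several members changed with 1 oligodendrocyte array left out. Without the passage 11 oligodendrocyte array, Gfap stood at 2.39, Aqp4 at 1.84 and S100b at 1.80. Without the passage 3 array, S100b stood at 3.61, Gfap at 0.58, Nfia at -0.93 and Nfib at -1.18. In both cases the spread came from the OPC pair alone, whose SD was 0.0 for Gfap, at 8.11 on each OPC array. Without either OPC array 0 members passed in limma, and 2 to 4 genes in all.

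**Figure D3:**
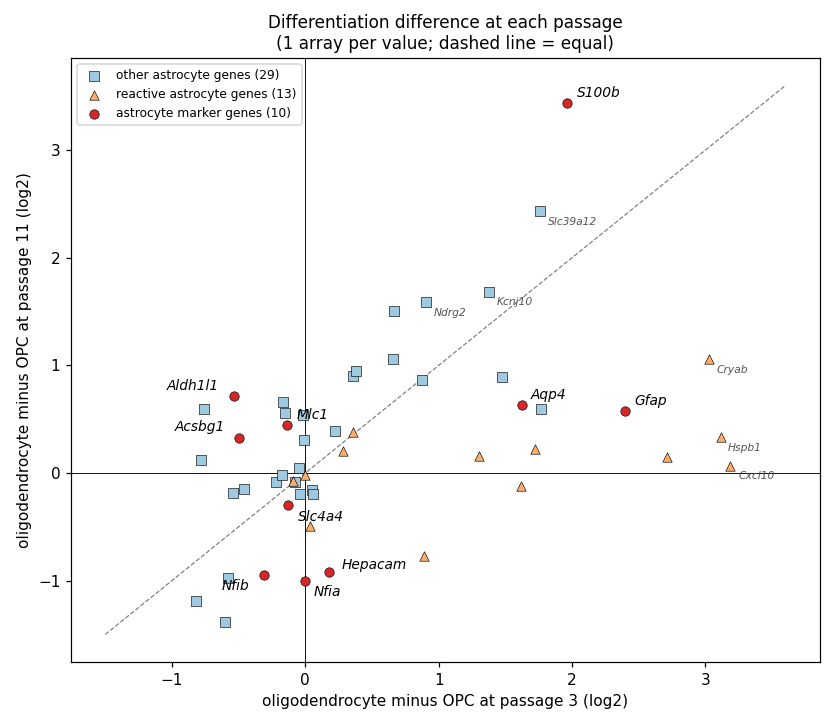
The log2 difference between oligodendrocytes and OPCs at passage 3 (horizontal axis) and at passage 11 (vertical axis), 1 array on each side of each value, for the 10 astrocyte marker genes (circles), 29 other astrocyte genes (squares) and 13 reactive astrocyte genes (triangles). Gfap (2.39 and 0.58) and Aqp4 (1.62 and 0.63) lie to the right below the dashed line of equality with several triangles, and S100b (1.96 and 3.44) lies above it.

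Several genes of reactive astrocytes, which respond to injury and inflammation, also stood out on the passage 3 oligodendrocyte array. Of 13 such genes, 7 were at least 2-fold higher in oligodendrocytes than in OPCs at passage 3 and 0 lower, with a list median of 1.30, where 2.65% of all genes were higher by that size. At passage 11 it was 1 of 13, with a median of 0.15 (2.55% of all genes). The largest differences at passage 3 were those of Cxcl10, a chemokine gene, at 3.19 (7.97 to 11.16), and the small heat shock protein genes Hspb1 at 3.11 (9.11 to 12.22) and Cryab at 3.02 (9.81 to 12.84). At passage 11 the same genes differed by 0.07, 0.33 and 1.06. Other genes of the list did not rise at passage 3, with Timp1 at -0.09, Aspg at -0.01 and Vim at 0.04. The list mean was 10.64 in passage 3 oligodendrocytes and 8.41 to 9.38 on the other 5 arrays. In limma 0 of the 13 were called between OPCs and oligodendrocytes, where 0.446% of all genes were, and 2 had an unadjusted p under 0.05, against 12.3% of all genes. Cryab and several others of the list are not specific to astrocytes, and Hspb1 read 12.33 in EpiSCs. The part of these genes' sources in the Gfap and Aqp4 values was not tested. The 8 microglial markers had a mean of 7.97 in passage 3 oligodendrocytes, the lowest of their range of 7.97 to 8.31 over all arrays. The 8 fibroblast and pericyte markers had a mean of 9.44 there and 8.70 to 9.08 elsewhere, and 4 Schwann cell and neural crest markers 10.27 there and 9.63 to 10.05 elsewhere. Against passage 3 OPCs the medians of these 2 lists were 0.28 and 0.16. In each list 1 gene was at least 2-fold higher, Dcn at 1.57 and Erbb3 at 1.55, where 2.65% of all genes were. Both were also at least 2-fold higher at passage 11, at 1.31 and 1.19, where 2.55% of all genes were. Acta2 and Pdgfrb of the fibroblast and pericyte list were each at 0.98 at passage 3, and at 0.20 and 0.13 at passage 11. Of the 8 genes of that list 7 were positive at each passage. The part of these lists in the result was not tested either.

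A further list held 29 measured astrocyte genes that are not among the 10. From rosette to OPCs 7 of 29 rose and 0 fell, with a median of 0.93, where 1.26% of all genes rose and 1.87% fell and the median was 0.02. Slc25a18, the mitochondrial glutamate carrier gene, rose by 3.24 ± 0.30, the glycolytic gene Aldoc by 2.80 ± 0.31 and the sodium pump subunit gene Atp1b2 by 2.64 ± 0.21. Atp1b2 was lowest in the rosette, at 8.79 against 10.35 in EpiSCs, and OPCs exceeded EpiSCs by 1.08 (limma adjusted p = 0.0475). With either OPC array left out, 4 of the 29 were called, and with either oligodendrocyte array left out, 19. At the other end Slc1a2, an astrocyte glutamate transporter gene, was at -1.18 (limma adjusted p = 0.195), with 10.93 in the rosette and 9.62 and 9.87 in OPCs. Fgfr3 was at -0.64 (adjusted p = 0.744). Gjb6, a connexin gene of mature astrocytes, differed by 0.04 and read between 6.98 and 7.19 on all 6 arrays. Gja1, the other astrocyte connexin gene, was highest in EpiSCs at 12.74 and read 11.04 to 11.60 elsewhere.

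From OPCs to oligodendrocytes 1 of these 29 rose, where 0.396% of all genes did, the potassium channel gene Kcnj10, at 1.53 ± 0.16 (limma adjusted p = 0.0407, 0.0526 with passage as a replicate block and 0.0507 with an intensity trend). Without either OPC array 0 of the 29 passed in limma, and without the passage 3 or passage 11 oligodendrocyte array 12 and 8 did. Kcnj10 read 10.03 and 9.99 in OPCs and 11.41 and 11.68 in oligodendrocytes. Slc39a12, a zinc transporter gene, had the largest difference, 2.10 (adjusted p = 0.0893), from 7.72 and 7.95 to 9.48 and 10.37. Unlike Gfap and Aqp4, both genes were higher at passage 11 than at passage 3 in oligodendrocytes, by 0.27 and 0.89. At passage 3 the count at least 2-fold higher was 4 of 29 and 0 were as much lower, with a list median of -0.01, where 2.65% of all genes were higher by that size. At passage 11, 5 of 29 were at least 2-fold higher and 2 lower, with a median of 0.39, where 2.55% and 2.48% of all genes were.

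**Figure D4:**
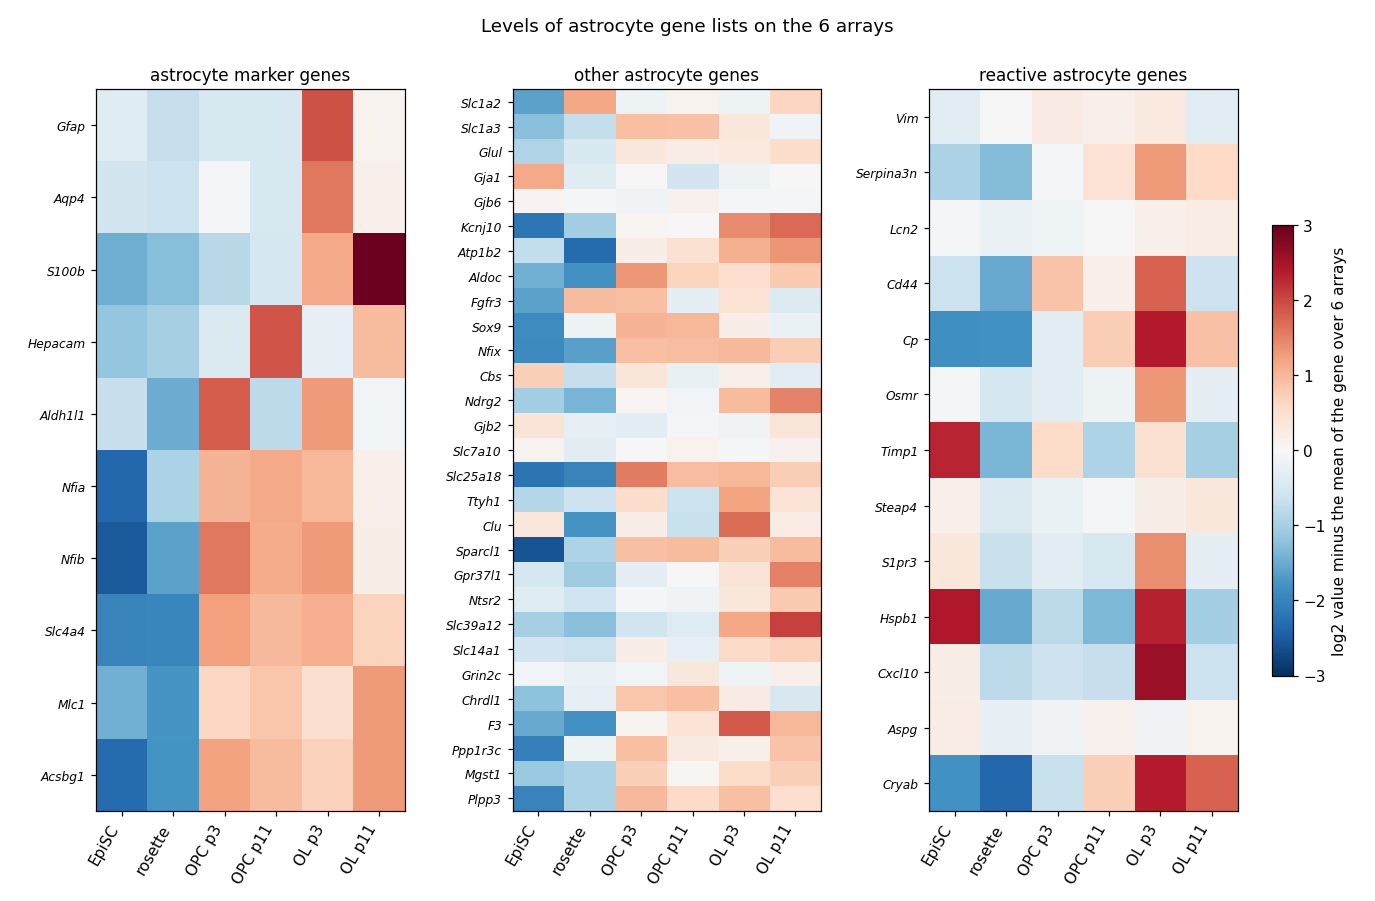
Colour shows the log2 value of each gene on each array minus the mean of that gene over the 6 arrays (red above, blue below), for the 10 astrocyte marker genes, 29 other astrocyte genes and 13 reactive astrocyte genes. The passage 3 oligodendrocyte column is red for Gfap, Aqp4 and several reactive genes such as Cxcl10 at 11.16, while Slc4a4, Acsbg1 and Slc25a18 are red over all 4 OPC and oligodendrocyte columns.

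MLC1, HEPACAM, AQP4 and KCNJ10 meet at astrocyte membranes with other proteins of potassium and water handling. Of the 13 measured genes of that list 2, Mlc1 and Atp1b2, rose from rosette to OPCs, where 1.26% of all genes rose. From OPCs to oligodendrocytes 1, Kcnj10, rose, where 0.396% of all genes did. Dtna, which encodes dystrobrevin alpha, was at 1.15 in that comparison (limma adjusted p = 0.0832). Clcn2, the chloride channel gene whose protein GlialCAM binds, read 9.06 and 9.16 in OPCs and 9.76 and 9.83 in EpiSCs and the rosette. Trpv4, a calcium channel gene, read between 8.42 and 8.68 on all arrays.

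Likeness of profile was measured as the mean absolute difference between the 6 array values of 2 genes, each centred on its own mean. Among the members Gfap and Aqp4 were most alike, at 0.18, followed by Slc4a4 and Acsbg1 at 0.25 and Nfia and Nfib at 0.29. The least alike were Gfap and Acsbg1, at 1.42. Mlc1 and Hepacam differed by 0.70. Gfap lay nearest to Mal, a myelin protein gene, at 0.11, which read 11.18 in passage 3 and 9.81 in passage 11 oligodendrocytes and 8.87 to 9.22 elsewhere. Next came Sync at 0.12 and Bmp6 at 0.12. Aqp4 lay nearest to Mfap3l at 0.08, then Slco1a5 and Cemip at 0.14 each.

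S100b lay nearest to Abhd3 at 0.26, Rab7b at 0.27 and Ptgds, the prostaglandin D synthase gene, at 0.27. Ptgds read 10.29 and 10.57 in OPCs, and 11.83 and 13.36 in oligodendrocytes. Slc4a4 lay nearest to Slc25a18 at 0.13, Nfix at 0.16 and Ephx1 at 0.17. Slc25a18 was also the nearest to Acsbg1, at 0.25, ahead of Cdh20 at 0.25 and Kcnd2 at 0.27. Mlc1 lay nearest to Tmem176a at 0.13, Gng12 at 0.18 and Pde4b at 0.19. Nfia lay nearest to Sorcs1 at 0.11, Tlcd4 at 0.12 and Dscam at 0.19, and Nfib to Slitrk2 at 0.18, Calcrl at 0.27 and Sorcs1 at 0.29. The nearest genes were farther off for Hepacam, with Kctd4 at 0.33, Agmo at 0.38 and Nptx1 at 0.39, and for Aldh1l1, with the smooth muscle actin gene Acta2 at 0.38, Prss35 at 0.40 and Emp2 at 0.41. Acta2 read 12.81 and 11.66 in OPCs at passages 3 and 11, and 13.79 and 11.87 in oligodendrocytes.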

How the data were processed

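RNA of 6 cultures (EpiSCs, rosettes, OPCs and oligodendrocytes, the last 2 at passages 3 and 11) was measured on 1 Affymetrix array each. The authors deposited 1 log2 value per transcript and array. The submitters' processing notes name RMA and Affymetrix Expression Console, whose version is not given in the sources used here. RMA corrects for background, equalises the arrays' distributions and summarises probes, so an array-wide shift would not show.

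Of 35556 measured transcripts, 21789 carried 1 gene symbol in the array annotation, 1621 several and 12146 none. The last 2 kinds were left out. By Entrez ID 21698 matched RefSeq (GRCm38.p6), with 0 symbols changed. For genes with several transcripts (999) the one with the highest mean was kept, which left 19938 genes with no filter on low values.

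Cell types were compared two-sided by lmFit and eBayes of limma 3.58.1 (R 4.3.3) over all 6 arrays, with 2 residual and 3.32 prior degrees of freedom, or for passage over 4 arrays with cell type as a covariate (1 residual and 3.19 prior). Benjamini-Hochberg adjustment ran over all genes, with calls under 0.05. The fit was run on simulated data with the same spread on all arrays, which cannot test whether the lone arrays vary like the pairs. Where a side has 1 array, its spread is borrowed, and single-array differences have no test and are counted at 2-fold. Passage pairs OPCs with the oligodendrocytes that carry the same passage number in the labels, and the fit with passage as a replicate block was an alternative. Others were an intensity trend, the mean of a gene's transcripts, genes above the median of 9.0 (log2), median-centred arrays and leaving out each replicate.

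The members and lists were chosen with earlier results of these data known. Named genes are the members, up to 3 genes at each end of a list in a comparison, and the 3 genes nearest in profile to each member whose arrays span at least 2 log2 units. The number of arrays limits the precision.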

Additional observations from a re-analysis of the deposited data

Results flagged for a closer look

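The difference between oligodendrocytes and OPCs had opposite signs at the passages for 4 of the 10 members (Mlc1, Hepacam, Acsbg1 and Aldh1l1), as it had for 35.8% of all genes, a share near that of the members. The passage difference had opposite signs in OPCs and oligodendrocytes for Nfia and Acsbg1, and for 31.4% of all genes. Each value rests on single arrays, and the change from passage 3 to passage 11 was not tested, since no residual degree of freedom remains. Over all genes, the size of the change had a median of 0.19 and a 95th percentile of 0.81 (log2).

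Aldh1l1 went from -0.54 at passage 3 to 0.71 at passage 11, a change of 1.25. Hepacam went from 0.18 to -0.92, a change of -1.10. Nfia went from -0.01 to -1.0, a change of -1.0, and its passage difference was 0.14 in OPCs and -0.86 in oligodendrocytes. That holds for the transcript used. The second Nfia transcript read 10.58 and 11.11 in OPCs at passages 3 and 11, and 10.60 and 10.61 in oligodendrocytes. Its passage signs were therefore not opposite, though its oligodendrocyte values hardly differed. For this transcript oligodendrocytes read slightly above OPCs at passage 3 and below them at passage 11. Acsbg1 went from -0.50 to 0.33, a change of 0.83. Mlc1 went from -0.13 to 0.44, a change of 0.58, less than the 95th percentile.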

How the results depend on the processing

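With passage as a replicate block the genes called rose from 624 to 1206 in OPCs against the rosette and from 1397 to 2318 in OPCs against EpiSCs. The block changed no member's call besides Nfia and Hepacam. With only genes above the median, these counts were 334 and 898. Median-centring gave 157 genes in oligodendrocytes against OPCs, in place of 89, and 2 between passages, in place of 0; an intensity trend gave 1 between passages. Leaving out 1 array gave 156 to 2897 genes in OPCs against the rosette, 470 to 4154 against EpiSCs and 2 to 2919 in oligodendrocytes against OPCs. The high counts came without an oligodendrocyte array, when the spread rests on the OPC pair alone. Members called then ranged from 2 to 5 in OPCs against the rosette, and in oligodendrocytes against OPCs from 0 to 4. The cause of these changes was not tested further.

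Signs turned only for uncalled members with 1 array left out. In oligodendrocytes against OPCs the values ranged from -0.43 to 0.0057 for Slc4a4, -0.24 to 0.55 for Mlc1, -1.53 to 0.78 for Hepacam, -0.37 to 0.20 for Acsbg1 and -1.21 to 1.39 for Aldh1l1. In OPCs against EpiSCs they ranged from -0.094 to 2.51 for Aldh1l1. No fit leaves out an array between passages, as no residual degree of freedom would remain. Low signals, as of Gfap and Aqp4 in OPCs, can be background and limit their fold changes.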
